A study of Mus musculus with 12 samples.

Results

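The genes described here are 10 mouse genes for lymphocyte adhesion and costimulatory receptors, Cd2, Thy1, Cd48, Slamf1, Slamf6, Slamf7, Slamf9, Ly9, Cd84 and Cd244, read in 10 RNA-seq libraries. They were chosen because Cd2 and Thy1 were known to be higher in plasmablasts (PBs) without Xbp1, and the other 8 belong to the CD2 and SLAM receptor family. All 10 were found, among 24189 genes listed for PBs and 24732 listed for splenic plasma cells (PCs). Since Cd2 and Thy1 were chosen by their values in Xbp1-deficient PBs, these values are given as a description, without a test.

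The study examined the transcription factors Xbp1 and Mist1, the product of Bhlha15, in antibody-secreting cells of C57BL/6 mice. PBs were derived from splenic B cells in the iGB culture on 40LB feeder cells, a line of fibroblast origin that presents CD40 ligand and BAFF, and were sorted on day 8 by surface markers that included CD138+ and CD23-. Their genotypes were Xbp1 fl/fl as control, Cd23-Cre Xbp1 fl/fl, in which a Cre transgene that becomes active in immature B cells deletes Xbp1, and Bhlha15 CreER/CreER, in which CreER was placed in both alleles of Bhlha15. PCs were sorted from the spleen on day 7 after immunization with NP-KLH as TACI+ CD138+ cells, from mice labelled wildtype, which the text of the study gives as Bhlha15 fl/fl, and from Cd23-Cre Bhlha15 fl/fl mice. They are called control, Xbp1-deficient, CreER, wildtype and Mist1-deficient libraries below. Each of these 5 groups had 2 libraries, and Mist1 Bio-ChIP-seq was done in 2 experiments on CD138+ PBs of Bhlha15 fl/fl R26 BirA/BirA mice after LPS stimulation for 4 days, in which the tagged Mist1 is biotinylated and pulled down with streptavidin.

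CD2 and the SLAM receptors are cell surface proteins of the immunoglobulin superfamily that bind each other across the contact of neighbouring cells. CD48, which is held in the membrane by a GPI anchor and has no cytoplasmic part, is a ligand of both CD2 and CD244 in the mouse, whereas SLAMF1, SLAMF6, SLAMF7, LY9 and CD84 each bind a copy of themselves. Their cytoplasmic tails carry tyrosine motifs that recruit the small adaptors SAP (Sh2d1a) and EAT-2 (Sh2d1b1) as well as phosphatases. Thy-1 is another small GPI-anchored protein of the immunoglobulin superfamily, carried by T cells and also by fibroblasts.

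A run of 7 genes, Cd244, Ly9, Slamf7, Cd48, Slamf1, Cd84 and Slamf6, forms a cluster of 389760 bp on chromosome 1 (mm9, 173489324 to 173879083), and Slamf9 starts 526406 bp beyond the end of Slamf6. Cd2 lies on chromosome 3 (101079822 to 101091862, minus strand) and Thy1 on chromosome 9 (43851467 to 43856662, plus strand). No gene of GENCODE release M1 overlapped any of the 10 genes. The 250 bases before the annotated start are shown for the genes that results below turn on, 5′ to 3′ in the direction of transcription, with E-boxes (CANNTG, the motif class of bHLH proteins such as Mist1) in capitals. Cd2 and Thy1 stand for the genes that chose the set, and the other 4 have their window wholly under a Mist1 region.
Cd2 (chr3:101091863-101092112, minus strand): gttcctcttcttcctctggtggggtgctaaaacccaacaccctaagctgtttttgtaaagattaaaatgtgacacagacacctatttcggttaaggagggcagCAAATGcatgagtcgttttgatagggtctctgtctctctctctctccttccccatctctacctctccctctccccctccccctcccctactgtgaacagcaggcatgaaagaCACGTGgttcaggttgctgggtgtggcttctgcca
Thy1 (chr9:43851217-43851466, plus strand): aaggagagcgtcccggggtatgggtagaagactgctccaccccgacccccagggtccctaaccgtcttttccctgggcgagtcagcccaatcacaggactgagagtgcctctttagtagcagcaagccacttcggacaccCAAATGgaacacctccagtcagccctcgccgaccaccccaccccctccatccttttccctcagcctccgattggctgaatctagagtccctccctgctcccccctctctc
Cd48 (chr1:173611890-173612139, plus strand): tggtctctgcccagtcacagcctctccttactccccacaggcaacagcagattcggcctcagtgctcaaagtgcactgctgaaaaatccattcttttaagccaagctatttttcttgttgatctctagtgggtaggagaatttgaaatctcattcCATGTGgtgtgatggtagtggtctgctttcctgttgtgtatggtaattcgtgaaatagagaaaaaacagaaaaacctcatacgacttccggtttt
Slamf6 (chr1:173847396-173847645, plus strand): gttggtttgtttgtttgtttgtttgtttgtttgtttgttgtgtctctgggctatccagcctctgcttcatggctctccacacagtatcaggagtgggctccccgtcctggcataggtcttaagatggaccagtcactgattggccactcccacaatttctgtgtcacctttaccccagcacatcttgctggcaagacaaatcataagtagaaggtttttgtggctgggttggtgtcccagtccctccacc
Slamf7 (chr1:173579150-173579399, minus strand): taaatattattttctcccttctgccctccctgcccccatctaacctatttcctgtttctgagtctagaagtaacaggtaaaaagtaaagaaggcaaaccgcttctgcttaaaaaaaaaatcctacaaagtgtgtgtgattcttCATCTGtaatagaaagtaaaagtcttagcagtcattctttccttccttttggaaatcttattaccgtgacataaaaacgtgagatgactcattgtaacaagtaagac
Slamf9 (chr1:174405239-174405488, plus strand): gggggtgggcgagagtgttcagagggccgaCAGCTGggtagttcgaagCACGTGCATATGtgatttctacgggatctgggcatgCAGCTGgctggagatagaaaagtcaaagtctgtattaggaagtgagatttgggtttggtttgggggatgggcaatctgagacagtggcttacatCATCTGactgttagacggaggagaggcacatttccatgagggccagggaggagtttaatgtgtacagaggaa
The Slamf9 window held 5 E-boxes, 2 of them CAGCTG and 1 CATATG, whereas the Slamf6 window held none and those of Cd48, Slamf7 and Thy1 held 1 each. On either strand, CANNTG was in the windows of 9 of the 10 genes and in 63.6% of the windows of the same length at 22367 protein-coding genes. CAGCTG, which is 1 form of CANNTG, was found at 1 of the 10 (Slamf9) and at 11.8% of all, and CATATG, another form, at 1 of the 10 (Slamf9) and at 2.89% of all. TGACGTG, a core known for binding of Xbp1, was found at none of the 10 and at 1.68% of all windows.

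Values are TPM, a share of all transcripts after division by gene length, so that levels may be compared between genes, and the number of reads behind them is unknown. The targeted genes were read first. Xbp1, read as a whole gene, measured 3168 and 3043 TPM in control PBs and 1981 and 2024 TPM in Xbp1-deficient PBs. Bhlha15 measured 176 and 159 TPM in control PBs, 3.57 and 2.60 TPM in Xbp1-deficient PBs, and 0.210 and 0.551 TPM in CreER PBs. In PCs Bhlha15 measured 258 and 242 TPM in the libraries labelled wildtype and 14.4 and 16.6 TPM in Mist1-deficient libraries. Nothing in the labels says whether the 2 libraries of a group came from separate animals, so that p-values measure the spread between these libraries only. An exact test of 2 libraries against 2 cannot give a p under 0.333, so that adjusted p-values below come from limma fits across all genes, at a threshold of 0.05. More RNA of a gene per cell and more cells that carry it cannot be told apart in these bulk samples.

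The receptors differed widely in level. In control PBs, the mean TPM fell from Cd48 (395) over Slamf7 (299), Slamf6 (213), Ly9 (157), Thy1 (37.0), Slamf1 (23.3), Cd84 (19.2), Slamf9 (11.4) and Cd2 (6.72) to Cd244 (0.0857), and the libraries of no neighbours in this order overlapped. Cd48 stood at the 98.5th percentile of the genes listed in this group and Cd2 at the 62.9th. In wildtype PCs the order was Slamf7 (376), Cd48 (315), Ly9 (119.5), Cd2 (80.2), Slamf6 (76.9), Slamf9 (59.0), Cd84 (21.0), Thy1 (15.3), Slamf1 (4.45) and Cd244 (1.82), and here only Cd2 and Slamf6 overlapped. Cd2 and Slamf9 were thus high and Slamf1 and Thy1 low in splenic PCs beside cultured PBs, a difference in which the cell stage, the culture, the separate sorting and the differing gene lists of PB and PC files cannot be told apart. Cd244, a receptor best known from NK cells, was at or below 0.108 TPM in all 6 PB libraries and was not tested there.

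**Figure D1:**
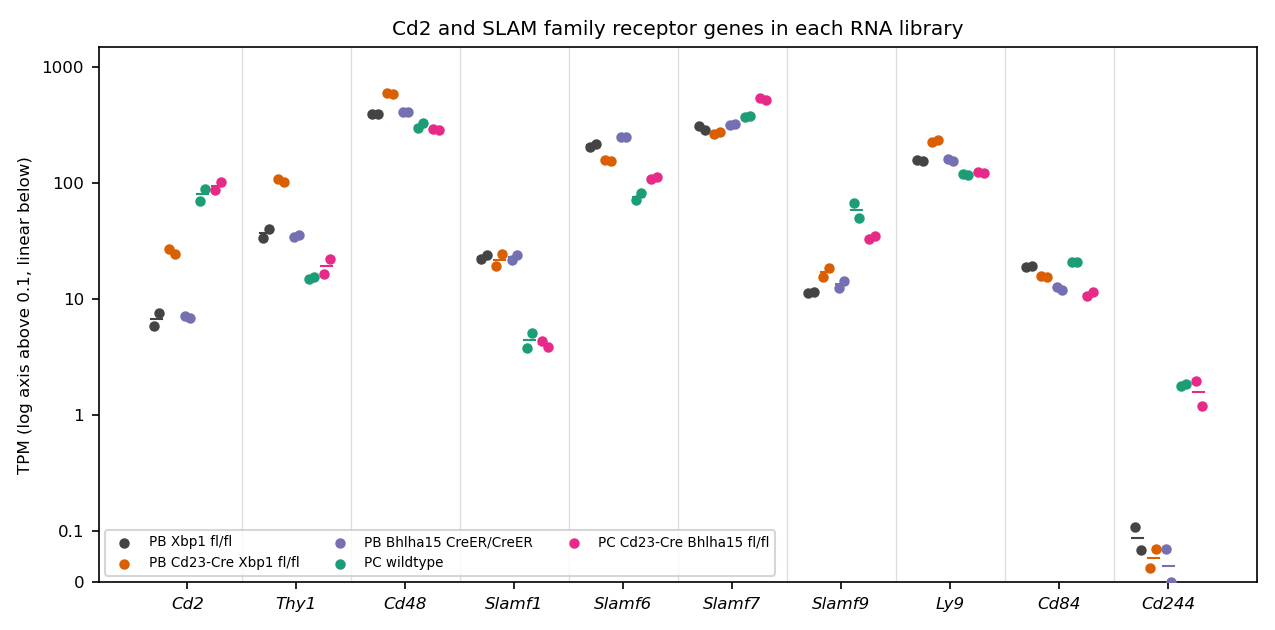
Deposited TPM of the 10 receptor genes in each of the 10 RNA libraries (log axis above 0.1, linear below). Points are libraries, 2 for each group, and short lines are group means. Cd2 and Thy1 are highest among PBs in Xbp1-deficient libraries (orange), whereas Slamf6 is lowest there.

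The first comparison asked whether the family moved with Cd2 and Thy1 in PBs without Xbp1. It did not move as a group: besides Cd2 and Thy1, the ligand gene Cd48 and Ly9 were higher, Slamf6, Slamf7 and Cd84 were lower, and Slamf1 and Slamf9 did not pass the test. Cd2, the receptor for CD48, measured 5.89 and 7.55 TPM in control PBs and 27.2 and 24.5 TPM in Xbp1-deficient PBs. Thy1 measured 33.8 and 40.2 TPM in the former and 109 and 103 TPM in the latter. For both genes the libraries of the 2 genotypes lay far apart, with a fitted fold of 3.32 for Cd2 (log2 ratio 1.73 ± 0.13, SE) and of 2.48 for Thy1 (1.31 ± 0.099). These values chose the set and carry no test.

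Cd48 measured 395 and 395 TPM in control PBs and 605 and 584 TPM in Xbp1-deficient PBs. Ly9, which codes for a receptor that binds itself, measured 159.8 and 154 TPM in the former and 227 and 235 TPM in the latter. Both genes were higher in each Xbp1-deficient library than in each control library. The fitted log2 ratio was 0.38 ± 0.086 (SE) for Cd48, with an adjusted p of 0.0116 (limma), and 0.35 ± 0.079 for Ly9, with an adjusted p of 0.0117. Both calls, but not the direction, depended on single libraries, with a log2 ratio of 0.34 to 0.43 for Cd48 and 0.28 to 0.42 for Ly9 when a library was left out. Without 1 of the 4 libraries the adjusted p (limma) was 0.0584 (without control library 1), 0.107 (without control library 2), 0.0914 (without Xbp1-deficient library 1) and 0.0540 (without Xbp1-deficient library 2) for Cd48. For Ly9 it was 0.112 without control library 2 and 0.0518 and 0.0786 without Xbp1-deficient library 1 and 2.

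Slamf6, a self-binding receptor of B and T cells, moved the other way. It measured 207 and 219 TPM in control PBs and 159 and 156 TPM in Xbp1-deficient PBs. The libraries of the 2 genotypes did not overlap, and the log2 ratio was -0.65 ± 0.076 (SE), with an adjusted p of 0.000412 (limma). Over the 14 alternative settings it ranged from -0.67 to -0.44, with an adjusted p (limma) between 0.000169 and 0.00808. Cd84, another self-binding receptor, measured 18.9 and 19.5 TPM in the controls and 15.7 and 15.7 TPM in the mutant PBs (log2 ratio -0.50 ± 0.091, adjusted p 0.00449, limma). Slamf7, a receptor that is abundant on PCs, measured 310.1 and 287 TPM in the controls and 269 and 278 TPM in the mutant PBs (-0.34 ± 0.094, adjusted p 0.0297, limma), so that its libraries lay close to each other on the deposited scale.

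The size of these differences depended on the scale. Before scaling, the median gene of the deposited TPM was 0.21 higher on the log2 scale in Xbp1-deficient than in control PBs, and the fitted differences are relative to this shift. On the deposited TPM, Cd84 (-0.29, adjusted p 0.0553, limma) and Slamf7 (-0.13, adjusted p 0.0923) no longer passed the test, and Slamf9 did (0.58, adjusted p 0.0124), whereas Slamf6 remained lower (-0.44). Slamf9, expressed by myeloid and some lymphoid cells, measured 11.3 and 11.4 TPM in the controls and 15.5 and 18.7 TPM in the mutant PBs, with a log2 ratio of 0.37 ± 0.14 (SE) and an adjusted p of 0.0890 (limma). Slamf1, which codes for the founding self-binding receptor of the family, measured 22.3 and 24.2 TPM in the controls and 19.2 and 24.7 TPM in the mutant PBs, and these ranges overlapped (-0.30 ± 0.14, adjusted p 0.146).

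In counts, 2 of the 7 genes read by the test were higher and 3 were lower, beside 28.3% of all 12125 genes called in either direction, 10.3% higher and 18.0% lower. The median log2 ratio of the 7 was -0.30 and that of all genes 0.0041. None of the 7 passed the stricter rule of the study, a fold above 3 with a mean above 5 TPM in the higher group, which 1.87% of all genes passed. Slamf7 also lost its call without either Xbp1-deficient library, with an adjusted p (limma) of 0.132 and 0.0913, without control library 1 (0.234), with no filter on low values (0.0593) and with eBayes without the trend (0.0843).

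**Figure D2:**
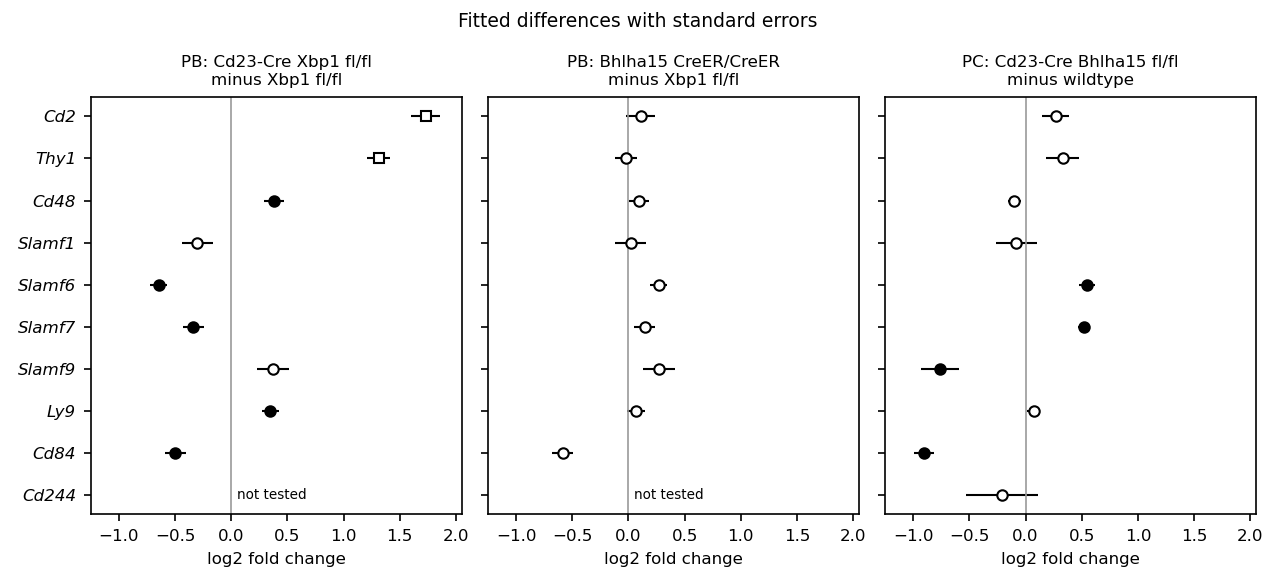
Fitted log2 ratios of the 10 genes with their standard errors in 3 comparisons of 2 against 2 libraries. Filled circles passed an adjusted p of 0.05 (limma), open circles did not, and squares are values that chose the set and were not tested. The left panel holds genes on both sides of 0, from Cd2 at 1.73 to Slamf6 at -0.65.

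Cd2 and Thy1 lay near the control in PBs with the CreER allele of Bhlha15. These PBs and the Xbp1 fl/fl control also differ in their alleles, so that the comparison does not isolate loss of Mist1. In CreER PBs, Cd2 measured 7.16 and 6.83 TPM, within the range of the control libraries, and Thy1 measured 34.5 and 36.1 TPM, also within that range. The log2 ratio was 0.11 ± 0.13 (SE) for Cd2 and -0.021 ± 0.099 for Thy1, with an adjusted p of 0.811 and 0.966 (limma). This comparison used the same control libraries as the previous one. None of the 9 genes tested passed an adjusted p of 0.05 in limma, beside 0.322% of all genes, 0.0495% higher and 0.272% lower, and 2 of the 9 had an unadjusted p under 0.05, beside 1267 of 12125 genes. These were Cd84 and Slamf6.

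Cd84 came closest. It measured 12.8 and 12.0 TPM in CreER PBs, below both control libraries at 18.9 and 19.5 TPM, with a log2 ratio of -0.58 ± 0.091 (SE) and an adjusted p of 0.0527 (limma). It passed the test on deposited TPM (adjusted p 0.0493, limma) and with a filter of 5 TPM (0.0314). Slamf6 measured 249.6 and 249 TPM, above both control libraries (0.27 ± 0.076, adjusted p 0.263, limma).

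Both mutant genotypes were then compared with each other. Cd2 and Thy1, described without a test, had log2 ratios of 1.62 and 1.33 (Xbp1-deficient over CreER). Slamf6 had the largest ratio of the 7 genes tested, at 159 and 156 TPM in Xbp1-deficient PBs and 249.6 and 249 TPM in CreER PBs, a log2 ratio of -0.92 ± 0.076 (SE) with an adjusted p of 5.68e-05 (limma). Slamf7 was also lower in Xbp1-deficient PBs, at 269 and 278 against 318 and 323 TPM (-0.48 ± 0.094, adjusted p 0.00646). Both held in all 14 alternative settings. Cd48, at 605 and 584 against 409.99 and 409 TPM, and Ly9, at 227 and 235 against 162 and 157 TPM, were higher by 0.29 ± 0.086 and 0.28 ± 0.079 on the log2 scale, with an adjusted p of 0.0391 and 0.0301 (limma). These 2 calls were lost when the control libraries were left out of the fit (adjusted p 0.0951 and 0.0586, limma), and were kept in 6 (Cd48) and 7 (Ly9) of the 14 settings. In all, 2 of 7 genes were higher and 2 lower, beside 27.1% of all genes called, 9.34% higher and 17.8% lower. Cd84 did not pass the test between both mutants, at 15.7 and 15.7 against 12.8 and 12.0 TPM (0.088 ± 0.091, adjusted p 0.513, limma), but did so on deposited TPM (adjusted p 0.0315).

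In splenic PCs, loss of Mist1 was accompanied by changes in 4 receptors in both directions. Slamf7 measured 373 and 378 TPM in the libraries labelled wildtype and 540.3 and 524 TPM in Mist1-deficient PCs. Slamf6 measured 71.3 and 82.4 TPM in the former and 109 and 112 TPM in the latter. Every mutant library lay above every control library for both genes, with a log2 ratio of 0.52 ± 0.055 (SE) and an adjusted p of 0.00277 for Slamf7 and of 0.55 ± 0.070 and 0.00462 for Slamf6 (limma). Cd84 measured 21.0 and 21.0 TPM in the controls and 10.6 and 11.4 TPM in the mutant PCs, a log2 ratio of -0.90 ± 0.090 with an adjusted p of 0.00255 (limma). The calls of Slamf6, Slamf7 and Cd84 held in all 11 alternative settings.

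Slamf9 measured 68.2 and 49.7 TPM in the wildtype PCs and 33.0 and 34.8 TPM in Mist1-deficient PCs, a log2 ratio of -0.76 ± 0.17 (SE) with an adjusted p of 0.0218 (limma). Its control libraries were the more spread pair. The call was lost without either Mist1-deficient library, with an adjusted p (limma) of 0.0821 and 0.0844, and with eBayes without the trend (0.0774). In all, 2 of the 10 genes were higher and 2 lower, beside 29.5% of all 12028 genes called, 13.3% higher and 16.2% lower, and the median log2 ratio was -0.0054 for the 10 genes and 0.014 for all genes. None of the 10 passed the rule of a fold above 3, which 0.848% of all genes passed.

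Cd2 and Thy1 did not pass the test in PCs. Cd2 measured 70.9 and 89.5 TPM in the controls and 86.6 and 103 TPM in the mutant PCs, which overlapped (0.27 ± 0.12, adjusted p 0.155, limma). Thy1 measured 15.1 and 15.6 TPM in the controls and 16.5 and 22.0 TPM in the mutant PCs (0.33 ± 0.15, adjusted p 0.143). Each passed when 1 library was left out, Cd2 without wildtype library 2 (0.40, adjusted p 0.0376, limma) and Thy1 without Mist1-deficient library 1 (0.54, adjusted p 0.0489). Cd48, Ly9, Slamf1 and Cd244 had log2 ratios between -0.21 and 0.072 and adjusted p-values (limma) between 0.224 and 0.763.

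Since T cells carry Cd2, Thy1, Slamf6 and Ly9, a list of 18 T cell genes was read beside these values. It summed to 132 and 137 TPM in the wildtype PCs and to 162 and 204 TPM in Mist1-deficient PCs, and 4 of the 18 genes, Cd6, Cd5, Cd3d and Tcf7, were higher there and none lower (limma), beside 13.3% and 16.2% of all genes. This count rested on Mist1-deficient library 2, without which 0 of 17 genes passed the test (limma), whereas 7 of 17 did without library 1. Without a filter on low values 2 of 18 passed. Cd3e, a subunit of the T cell receptor complex, measured 8.69 and 10.8 TPM in the controls and 11.1 and 15.8 TPM in the mutant PCs, and no gene of the list was at 0 in a PC library. Its part in the values of Cd2, Thy1 and Slamf6 in PCs was not tested. In PBs the list summed to 50.3 to 58.9 TPM, and 4 or 5 of the 18 genes were at 1 TPM or more in each library. Cd8a was at 0 in all 6 libraries, and Cd3e was at 0 in 5 and at 0.0856 TPM in Xbp1-deficient library 2. Cd3g measured 5.40 and 5.98 TPM in control, 9.55 and 7.57 TPM in Xbp1-deficient and 5.26 and 7.64 TPM in CreER PBs. The part of the list in the PB values was not tested either. Of the 5 T cell genes tested in Xbp1-deficient PBs, 1 was higher and 1 lower (limma), beside 10.3% and 18.0% of all genes. Their median log2 ratio was 0.37. The lower one was the transcription factor gene Lef1 (-0.52, adjusted p 0.00422, limma).

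Fibroblast genes were read because 40LB cells can carry Thy1. The list of 15 genes summed to 1351 and 1628 TPM in control PBs, to 2060.2 and 1885 TPM in Xbp1-deficient PBs and to 1798 and 1049.7 TPM in CreER PBs, beside 11.0 to 13.9 TPM in PCs. Only Lum of the 12 genes tested passed the test in Xbp1-deficient PBs, and it was lower. Col1a1, a collagen chain, measured 588 and 705 TPM in control, 904 and 834 TPM in Xbp1-deficient and 796 and 459.7 TPM in CreER PBs. The part of feeder RNA in the Thy1 values was not tested. A list of 12 neutrophil genes summed to 139 and 137 TPM in Xbp1-deficient and to 11.7 and 10.4 TPM in control PBs. In PCs it summed to 1016 and 481 TPM (wildtype) and to 877 and 579 TPM (Mist1-deficient). All 7 of its tested genes were higher in Xbp1-deficient PBs (limma), beside 10.3% of all genes. Genes such as Retnlg and Camp passed the filter only through these libraries, so that this count is no support. The part of the list in the receptor values was not tested either.

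**Figure D3:**
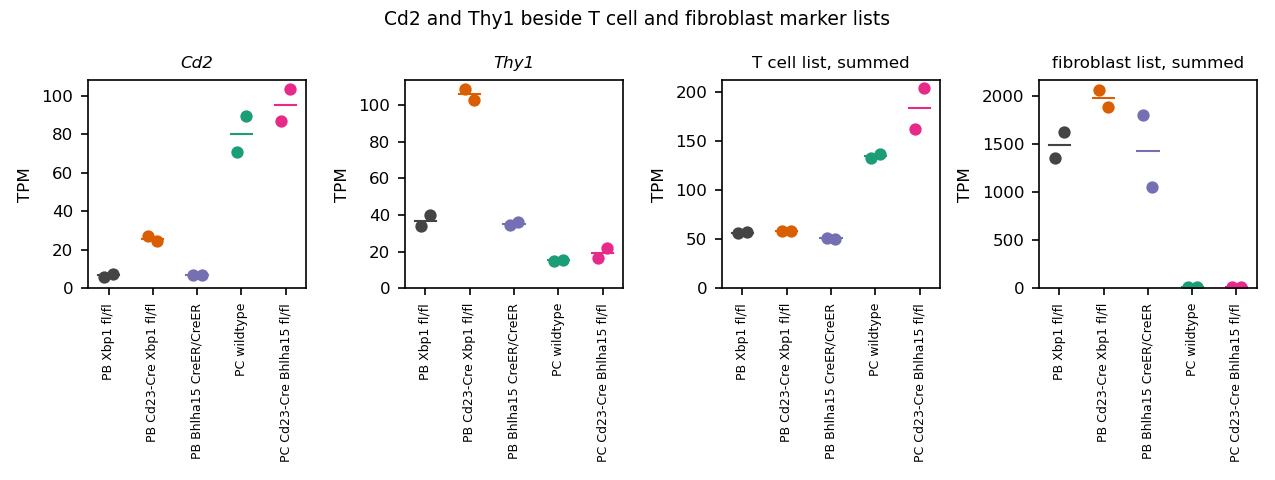
Deposited TPM of Cd2 and Thy1 beside the summed TPM of 18 T cell genes and of 15 fibroblast genes in each library. Points are libraries, 2 for each group, and lines are means. The T cell sum lies at 50.3 to 58.9 TPM in all PB libraries, whereas it is 162 and 204 TPM in Mist1-deficient PCs.

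Whether the effect of Mist1 loss differed between PCs and PBs was tested in a fit of all 10 libraries. The effect on Slamf7 was larger in PCs by 0.39 ± 0.094 (SE) on the log2 scale, with an adjusted p of 0.0456 (limma), and that on Slamf9 lower by -1.02 ± 0.23, with an adjusted p of 0.0392. The other 8 genes did not pass, beside 6.11% of all 13230 genes called, 1.94% higher and 4.17% lower. In PBs, Slamf9 measured 12.5 and 14.3 TPM in CreER and 11.3 and 11.4 TPM in control libraries, opposite in direction to PCs. This difference in PBs did not itself pass the test (0.27 ± 0.14, adjusted p 0.5565, limma). For Slamf6 the difference was 0.29 ± 0.090, with an adjusted p of 0.0972, and for Cd84 it was -0.30 ± 0.11, with an adjusted p of 0.154 (limma). The alleles, controls and culture also differ between these stages. Slamf7 kept its call in 1 of the 10 fits that left out a library (adjusted p 0.0381 to 0.150, limma) and Slamf9 in 2 of 10 (0.00989 to 0.126).

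The adaptors and effectors on which SLAM receptors signal were read as a list of 26 genes. In Xbp1-deficient PBs, 4 of 21 tested genes were higher and 3 lower, beside 10.3% and 18.0% of all genes, and without control library 1 these became 2 and 0. The 3 lower became 1 without any of the other 3 libraries compared. Fyn, the Src family kinase that SAP brings to SLAM receptors, measured 209.6 and 210.1 TPM in control PBs and 372 and 485 TPM in Xbp1-deficient PBs, a log2 ratio of 0.81 ± 0.13 (SE) with an adjusted p of 0.00208 (limma). Pstpip1, which codes for a protein that binds the CD2 tail, measured 19.6 and 21.8 TPM in the former and 33.8 and 37.7 TPM in the latter (0.58, adjusted p 0.00550). Of the other calls, Dok1 was higher (0.47), and Dok2 (-0.51) and the phosphatase gene Ptpn6 (-0.41) were lower. On deposited TPM 13 of the 21 genes were higher and 1 lower, so that the balance of this list follows the scale, while Fyn was higher in all 14 settings.

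EAT-2 and SAP differed in where they were found. Sh2d1b1 (EAT-2) measured 27.9 and 23.8 TPM in control, 33.5 and 41.4 TPM in Xbp1-deficient and 17.9 and 17.5 TPM in CreER PBs. The difference between the last 2 genotypes passed the test (log2 difference 0.82 ± 0.13, SE, adjusted p 0.00258, limma). Against the control, Sh2d1b1 passed neither in Xbp1-deficient PBs (0.32, adjusted p 0.114, limma) nor in CreER PBs (-0.50, adjusted p 0.237). In PCs it measured 6.65 and 6.18 TPM in the libraries labelled wildtype and 1.41 and 2.06 TPM in Mist1-deficient libraries, a log2 ratio of -1.83 ± 0.23 with an adjusted p of 0.00462 (limma), which held in all 11 settings. The difference between the effects in PCs and PBs was -1.32 ± 0.25, with an adjusted p of 0.0223 (limma), and kept its call in 11 of 17 settings. Sh2d1a (SAP) was listed at 0 in all 6 PB libraries. In PCs, next to the T cell genes described above, it measured 1.44 and 1.34 TPM in wildtype and 2.81 and 2.54 TPM in Mist1-deficient libraries (0.92 ± 0.24, adjusted p 0.0375, limma). This call at low TPM was kept in 5 of 10 settings. Sh2d1b2 was at 0 throughout.

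Of 25 genes of the list tested in PCs, 3 were higher and 4 lower, beside 13.3% and 16.2% of all genes, and the 3 became 0 or 1 without a Mist1-deficient library, 1 without wildtype library 1 and 0 without a filter. Fyn fell from 51.4 and 47.6 TPM in wildtype to 25.8 and 32.0 TPM in Mist1-deficient PCs (log2 ratio -0.76 ± 0.12, SE, adjusted p 0.00927, limma), and Dok3, an inhibitory adaptor of B cells, fell from 277 and 266 to 153 and 172 TPM (-0.72 ± 0.082, adjusted p 0.00335). Both held in all 11 settings. Plcg1, a phospholipase of receptor signalling, was higher by 0.34 (adjusted p 0.0454) and kept its call in 5 of 11 settings. With quantile normalization 8 genes were higher and 4 lower. In CreER PBs none of 21 passed the test (limma), beside 0.322% of all genes.

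**Figure D4:**
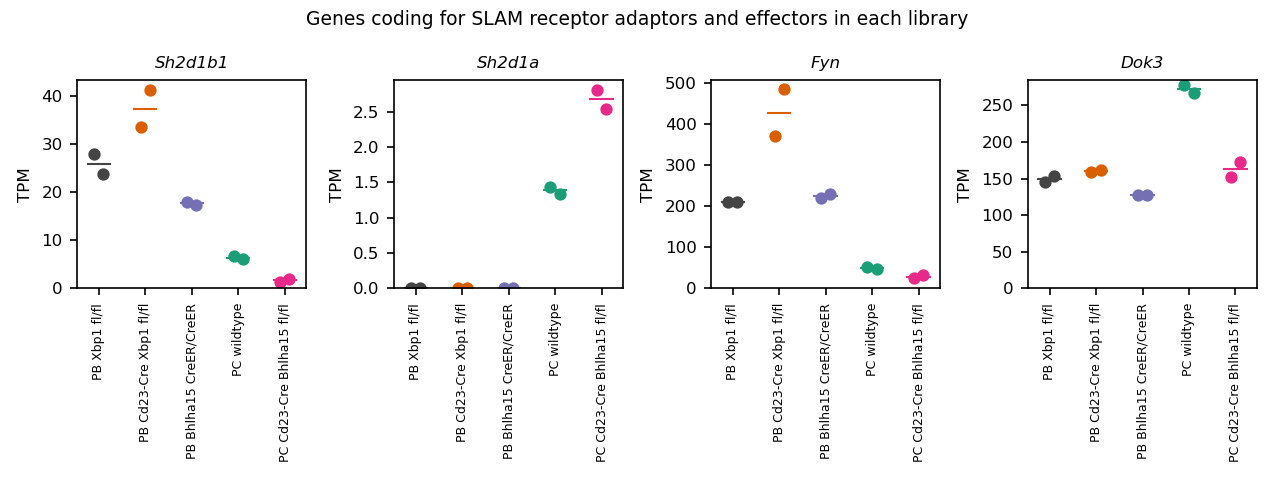
Deposited TPM of Sh2d1b1, Sh2d1a, Fyn and Dok3 in each library, each panel with a linear axis from 0. Points are libraries, 2 for each group, and lines are means. Sh2d1b1 and Fyn are lower in PCs than in PBs, and Sh2d1b1, Fyn and Dok3 are lower in Mist1-deficient than in wildtype PCs.

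CD48 and Thy-1 reach the surface on a GPI anchor, so that the genes for its synthesis and attachment were read. Of 26 genes tested in Xbp1-deficient PBs, 9 were lower and 6 higher, beside 18.0% and 10.3% of all genes, and on deposited TPM 7 were lower and 8 higher. The 6 higher became 1 without either control library, 0 without Xbp1-deficient library 1, 4 without library 2 and 2 without the trend, whereas 7 to 9 were lower in these settings. Pigg (-1.13), Pigm (-1.01), Pigt (-0.84), Pigk (-0.82) and Gpaa1 (-0.80) had the largest log2 ratios, with adjusted p-values (limma) between 0.000118 and 0.000403, and were lower in all 14 settings. Pigt, Pigk and Gpaa1 code for subunits of the transamidase that attaches the anchor to proteins. Its subunit genes Pigs (0.31, adjusted p 0.0220, limma) and Pigu (0.32, adjusted p 0.0172) were among the higher ones. Pigm, a mannosyltransferase of anchor synthesis, measured 21.7 and 21.8 TPM in control and 11.7 and 13.2 TPM in Xbp1-deficient PBs, and its libraries did not overlap. Thus Thy1 and Cd48 RNA was higher where the 5 RNAs with the largest ratios were lower and 6 others of the list were higher. In Mist1-deficient PCs 8 of 26 genes were higher and none lower, beside 13.3% and 16.2% of all genes, led by Pigb (0.75, adjusted p 0.00729, limma). Without Mist1-deficient library 1 the 8 became 1, without library 2 they became 2, and without the trend they became 4. In CreER PBs none of 26 passed the test.

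Mist1 regions found in both Bio-ChIP-seq experiments were then set beside the genes. These peaks give positions without heights and come from PBs of another culture. The lists used here hold fewer peaks than the study describes, so that the presence of a region, its absence and the shares of genes refer to these lists alone. Within 10 kb of their gene bodies, 9 of the 10 genes had at least 1 of the 20 regions found there, beside 54.1% of 22367 protein-coding genes and 80.9% of the 10939 that were tested in PBs. A region lay within 1 kb of the start of 6 genes, Cd48, Slamf1, Slamf6, Slamf7, Slamf9 and Cd84, beside 59.4% of the genes tested in PBs. Neither share stood far from that background.

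Of the 4 receptors that differed in Mist1-deficient PCs, Slamf6, Slamf7 and Slamf9 had a region over their start, 3705, 3074 and 996 bp wide, and Cd84 had one that began 502 bp inside the gene, 1381 bp wide and with its centre in an intron. Cd48 and Slamf1, which did not pass the test there, also had a region over their start, of 1780 and 473 bp. Cd2 had 5 regions, the nearest 1069 bp upstream, although a peak of the first experiment alone reached within 1 kb of its start. Thy1 had none within 10 kb, and its nearest region lay 13001 bp upstream. Ly9 and Cd244 shared a single region in an intron of Ly9, 15419 bp from the Ly9 start.

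The centre of that intronic region is shown because it is built from copies of a short repeat, each with a CAGCTG E-box in capitals, and is read on the minus strand.
Ly9 intron (chr1:173520793-173520992, minus strand): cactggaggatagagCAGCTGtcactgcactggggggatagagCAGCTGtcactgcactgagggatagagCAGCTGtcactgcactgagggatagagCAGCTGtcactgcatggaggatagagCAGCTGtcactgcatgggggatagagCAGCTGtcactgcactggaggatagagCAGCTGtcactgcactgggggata
These 200 bases held 7 CAGCTG, whereas the centres of the regions at the starts of Slamf6 and Slamf7 and inside Cd84 held no CANNTG, and that at Slamf9 held 4. The centres of the other regions held 1 to 5. Each centre is the midpoint of a region up to 3705 bp wide, so that no count covers a whole region. The share of such centres elsewhere with CANNTG was not taken. Ly9 measured 120.3 and 119 TPM in wildtype and 126 and 122 TPM in Mist1-deficient PCs (log2 ratio 0.072 ± 0.058, SE, adjusted p 0.386, limma).

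**Figure D5:**
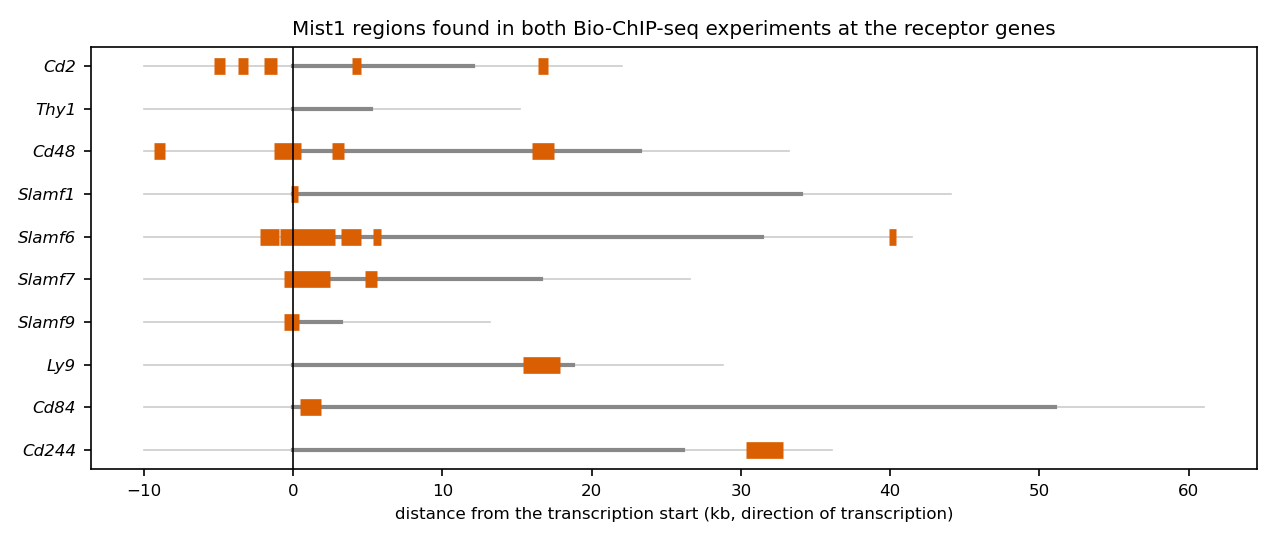
Mist1 regions common to both experiments (orange bars) along the 10 genes, with the distance from the annotated start in kb in the direction of transcription. Grey bars are gene bodies and thin lines the 10 kb on either side. Bars cross the start at Cd48, Slamf1, Slamf6, Slamf7 and Slamf9, and Thy1 has none.

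The protein-coding neighbours within 250 kb, 51 genes, were read for changes shared by a locus. In Xbp1-deficient PBs, 8 of 29 tested neighbours were higher and 6 lower, with a median log2 ratio of 0.21. Of all genes, 28.3% were called, 10.3% higher and 18.0% lower. On chromosome 1, 6 of 20 were higher and 4 lower, and the largest of these was the fall of Dusp23, a phosphatase gene (-2.35, adjusted p 0.00136, limma). Igsf3, an immunoglobulin superfamily gene next to Cd2 on chromosome 3, was higher (0.71, adjusted p 0.0361). In Mist1-deficient PCs, 5 of 28 neighbours were higher and 6 lower, beside 13.3% and 16.2% of all genes, and Pvrl4 fell (-1.69, adjusted p 0.0136, limma). Neighbours thus moved in both directions. In Xbp1-deficient PBs their median stood above that of all genes, which was 0.0041. These counts come from the main fits alone, and whether a locus shares a change was not tested.

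Genes most like Cd2, Thy1 and Cd48 over the 10 libraries were named by Pearson's r of log2 scaled TPM among 13229 other genes. The libraries fall into cultured PBs and splenic PCs, so that the points share stage and genotype and r is given as a description. For Cd2 they were Tcirg1 (r = 0.995), 1810034E14Rik, Gas5, Snhg12 and Cd2bp2 (r = 0.992), the last of which codes for a protein that binds the CD2 tail. Cd2bp2 measured 91.2 and 94.3 TPM in control PBs, 136 and 133 TPM in Xbp1-deficient PBs, 90.4 and 86.5 TPM in CreER PBs, and 191 to 208 TPM in PCs. For Thy1 they were Fxr1 (0.995), Aars, Repin1, Oas1a and Crot (0.990), and for Cd48 they were Rpl13a (0.996), Brk1, Npm1, Gngt2 and Vps26a (0.993). Among the receptors, Thy1 was most like Ly9 (0.973) and Cd48 (0.958), whereas Cd2 and Thy1 had an r of -0.54, with Cd2 higher and Thy1 lower in PCs.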

How the data were processed

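RNA-seq was read in 10 libraries of 5 groups and Mist1 Bio-ChIP-seq in 2 peak lists. The deposited TPM come from the authors. Adapters were removed by cutadapt, STAR (2.4.2) placed the reads on mm9, featureCounts (1.5) counted them, and genes of immunoglobulins and T cell receptors were not part of the TPM. The authors called peaks with MACS after alignment with Bowtie (1.0.0), and the deposited lists hold positions alone. The 10 members and all lists were chosen with earlier results of these data known.

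Libraries of a fit were brought to 1 scale with median-of-ratios factors, taken from genes that were above 0 throughout. A gene needed 1 TPM or more in 2 or more libraries. Fits used log2(scaled TPM + 0.1) in limma 3.58.1 and R 4.3.3 (lmFit, eBayes with a trend), with the 6 PB, the 4 PC or all 10 libraries in a fit. A fold change on this scale understates that of low genes. P-values were adjusted by the Benjamini-Hochberg method, each comparison over its whole set of tested genes. TPM are not counts, so that the count test of the study was not used. The fit was tested on simulated data. Genes named are the members, the called genes of each list with the largest changes (at most 5 for each list and comparison), called neighbours by the same rule and the 5 genes most like Cd2, Thy1 and Cd48. Col1a1, Cd3e, Cd8a, Sh2d1a and Sh2d1b2, among others shown beside a list, were named for their known roles after their values were seen. Depth is unknown, since TPM keep no read number. Lists for NK cells, macrophages and dendritic cells, erythroid cells, B cells and plasma cells were read as well. Of the genes tested in Xbp1-deficient PBs, the NK cell list had 0 of 2 higher or lower (limma), the macrophage and dendritic cell list 1 higher and 1 lower of 4, the B cell list 2 and 2 of 12, and the plasma cell list 1 and 6 of 11. In Mist1-deficient PCs these were 2 and 1 of 8, 1 and 0 of 8, 0 and 3 of 12, and 3 and 2 of 11. Erythroid genes were tested in PCs, where 0 of 4 were higher and 1 lower. Of all genes, 10.3% were higher and 18.0% lower in Xbp1-deficient PBs, and 13.3% and 16.2% in Mist1-deficient PCs. Results of some genes of the B cell and T cell lists are not reported here. Slamf8, a further family member, was under 1 TPM in every library.

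Peaks of both experiments sharing at least 1 bp were merged with bedtools 2.31.1 in Python 3.11.15 (pandas 2.3.3, numpy 2.4.6, matplotlib 3.10.9), giving 23804 regions from 29413 and 30247 peaks. Genes and sequence came from GENCODE release M1 and NCBIM37, the build of the files. Alternatives were other scalings, pseudocounts (1 and 0.01), filters, eBayes without the trend, fits of only the libraries compared, each library left out, and other overlaps and windows for regions.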

Additional observations from a re-analysis of the deposited data

Results flagged for a closer look

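A test of the difference between stages marked Slamf7 and Slamf9. The log2 ratio of Slamf7, Bhlha15 mutant over control, was higher by 0.39 in PCs than in PBs (adjusted p 0.0456, limma). Its direction was the same in both stages, with 4 of 4 mutant libraries above the mean of their controls. The ratio of Slamf9 differed by -1.02 (adjusted p 0.0392, limma), with both mutant libraries below both controls in PCs and above both in PBs. Both calls depended on single libraries, as given above. In PBs the ratio sets CreER beside Xbp1 fl/fl libraries and does not isolate loss of Mist1. In PBs alone neither gene passed the test (adjusted p 0.643 for Slamf7 and 0.5565 for Slamf9, limma). No group had more than 2 libraries, so that single libraries could not be examined as outliers.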

How the results depend on the processing

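No paired analysis was possible because nothing in the labels numbers the libraries so that they could be paired. In Xbp1-deficient PBs, the 3 lower receptors became 1 on deposited TPM, and the 2 higher ones ranged from 0 to 2 when a library was left out. In CreER PBs the 0 lower ones became 1 on deposited TPM and with the filter of 5 TPM. Between both mutants, the 2 higher ones became 1 without a filter, 0 without the trend and 0 with only the 4 libraries compared, and ranged from 0 to 2 without a library. In Mist1-deficient PCs the 2 lower ones became 1 without the trend and ranged from 1 to 2 without a library. For the difference between stages, the 1 higher became 2 with quantile normalization, both calls became 0 without a filter or without the trend, and each ranged from 0 to 1 without a library. The 21 summed regions became 13 within gene bodies and 48 within 50 kb. The cause of these changes was not tested. No receptor that passed the test changed direction.

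Of all genes, 3436 were called in Xbp1-deficient PBs and 1822 to 2260 without a library of either group. In CreER PBs 39 were called, 86 on deposited TPM, 80 with quantile normalization, 62 with the filter of 5 TPM, 17 without the trend, and 3 and 24 without a control library. Between both mutants there were 3287, 5243 on deposited TPM, and 2154 and 2128 without a Xbp1-deficient library. In PCs there were 3554, 2240 without the trend, and 1341 and 1110 without a Mist1-deficient library. For the difference between stages there were 809, 1220 with quantile normalization, 323 without the trend, and as few as 151 without a library. The share of calls that were higher was 36.4% in Xbp1-deficient PBs, 71.6% on deposited TPM and 56.1% with quantile normalization. Between both mutants it was 34.4%, 75.9% and 55.7%, and for the difference between stages 31.8%, against 43.7% with quantile normalization. With 2 libraries in a group and no read numbers, small differences at low TPM, as for Cd244, were not detectable. When a library was left out, the lone library of its group was assumed to vary like the others.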

Other observations

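B cell genes, which the report does not describe, were read in both mutants. In Xbp1-deficient PBs, Bank1 (log2 ratio 1.45) and Cd79b (0.72) were higher and Cd22 (-1.01) and Cd79a (-0.59) lower, 4 calls of 12 genes (limma). Of all genes, 28.3% were called there. In Mist1-deficient PCs, 3 of the 12 genes were lower and none higher, beside 16.2% and 13.3% of all genes. Among the lower ones were Blk (-0.47) and Ms4a1 (-0.44). Of the costimulatory receptors outside the family, Cd28, which PCs carry, was lower in Xbp1-deficient PBs (-0.43, adjusted p 0.0126, limma) and higher in Mist1-deficient PCs (0.79, adjusted p 0.00195, limma). Cd68, a lysosomal gene of macrophages, measured 128 and 131 TPM in control PBs and 16.9 and 18.7 TPM in Xbp1-deficient PBs.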
